A study of Mus musculus with 8 samples.

Results

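Bone is built by osteoblasts (OBs) and resorbed by osteoclasts, and a small set of secreted and membrane proteins carries messages between the lineages. The genes described here are the 7 best known of these signals and their receptors: Tnfsf11, Tnfrsf11b, Tnfrsf11a, Csf1, Csf1r, Il34 and Sema3a, out of 31053 genes counted. They were listed by name, with earlier results of these data known. Their unique molecular identifiers (UMIs, each standing for 1 captured mRNA molecule) were added up within each library and population.

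The cells came from parietal bones, the flat bones of the skull roof, of mouse pups at P4 to P5 in strain B6.129(FVB)-Col1a2tm1Mcbr/J. The series compared 4 libraries of wild type (WT) cells with 4 libraries of cells heterozygous (Het) for G610C, a knock-in that replaces a glycine of the α2 chain of type I collagen, which is encoded by Col1a2, and serves as a model of osteogenesis imperfecta. Each library was pooled from up to 5 animals of 1 genotype, and every cell of a Het animal carried the allele, since no promoter or Cre restricts it. S1 and S2 (WT) with S3 and S4 (Het) were made with version 3 of the 10x Genomics 3′ kit, and S5 and S6 (WT) with S7 and S8 (Het) with version 3.1. A point mutation leaves 3′ UMI counts as they are, so the genotype labels could not be checked from the counts.

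Of 68625 barcodes, 46420 held at least 500 genes and less than 10% mitochondrial UMIs. OBs were the 2671 of these cells with at least 10 Col1a1 UMIs and at least 2 UMIs in at least 2 of Runx2, Sp7 and Ibsp. The share of Col1a1 among a cell's UMIs divided them into 379 early OBs (eOBs, below 0.75%), 1217 differentiating OBs (dOBs) and 1075 mature OBs (mOBs, above 3.5%). Alpl and Panx3 were among the genes highest by fold in dOBs, and Bglap and Phex in mOBs. In eOBs they were Limch1, Mepe, Wif1, Mmp13 and Spp1 among others, of which Mepe, Mmp13 and Spp1 are known from late OBs and osteocytes and none is a marker of early ones. These genes go against the name early, which here stands for a low share of Col1a1 alone. Spp1 was also among the genes highest by fold in dOBs. The study named its stages from Cxcl12, Sox9, Sp7, Ibsp, Ifitm5 and Dmp1. Of these, Cxcl12 was higher in eOBs than in mOBs, as given further on, which goes with the name. Cells with at least 2 UMIs of Tyrobp, an adaptor of myeloid cells, numbered 5942 outside the OBs, and 37807 other cells remained. A library held 133 to 821 OBs and between 30480239 and 85162035 UMIs in all. A library's OBs had 22 to 95 eOBs among them. No pair of libraries shared more than 0.558% of the cell barcodes of the smaller one. Some OBs carried myeloid RNA: 142 had a Tyrobp UMI and 44 had at least 2. Conversely, 393 Tyrobp cells had at least 10 Col1a1 UMIs.

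Tnfsf11 encodes RANKL, the ligand that osteoclast precursors need in order to differentiate, and Tnfrsf11a encodes its receptor RANK. Tnfrsf11b encodes osteoprotegerin, a secreted decoy that binds RANKL and keeps it from RANK. Csf1 (M-CSF) and Il34 encode ligands of the receptor encoded by Csf1r, on which the survival and proliferation of macrophages and osteoclast precursors depend. Sema3a encodes a secreted semaphorin that restrains osteoclast formation and favours osteoblasts. A level below is a gene's UMIs scaled to 1000000 UMIs of the population (CPM), which is not scaled by gene length, so levels were compared between libraries and populations and not between genes.

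On GRCm38 (GENCODE M21 annotation), Tnfsf11 (ENSMUSG00000022015) lies at chr14:78277445-78308043 on the minus strand and Tnfrsf11b (ENSMUSG00000063727) at chr15:54250619-54278484 on the minus strand. Tnfrsf11a (ENSMUSG00000026321) lies at chr1:105780718-105847981 on the plus strand, and Csf1 (ENSMUSG00000014599) at chr3:107741048-107760469 on the minus strand. Il34 (ENSMUSG00000031750) lies at chr8:110741829-110805924 on the minus strand, and Sema3a (ENSMUSG00000028883) at chr5:13125414-13602565 on the plus strand.

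The bases just upstream of the start are shown for Tnfsf11 and Csf1, because the medians of both ligands were higher in eOBs than in dOBs and mOBs, and in OBs both moved in opposite directions with genotype in the 2 kit versions, as described further on. The sequences are from RefSeq (GRCm38.p6), 5′ to 3′ on the gene's own strand, 250 bases that end 1 base before the start of transcription.

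Tnfsf11, chr14:78308044-78308293, minus strand: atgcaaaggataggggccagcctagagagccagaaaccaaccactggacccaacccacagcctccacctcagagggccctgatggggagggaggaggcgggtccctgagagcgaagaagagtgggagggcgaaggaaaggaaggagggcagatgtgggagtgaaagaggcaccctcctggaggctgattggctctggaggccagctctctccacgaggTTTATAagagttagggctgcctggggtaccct

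Csf1, chr3:107760470-107760719, minus strand: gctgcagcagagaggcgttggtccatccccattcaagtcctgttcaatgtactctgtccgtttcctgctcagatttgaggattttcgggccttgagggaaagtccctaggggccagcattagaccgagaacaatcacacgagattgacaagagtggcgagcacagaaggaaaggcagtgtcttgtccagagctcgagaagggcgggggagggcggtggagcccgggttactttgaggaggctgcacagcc

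The capitals mark the only match to TATAAA, on the opposite strand, whose first base lies at -32 from the Tnfsf11 start. Csf1 held no match. TATAAA was found in 13.62% of 32851 mouse promoters of 300 bases (250 before and 50 after the start). It was 1 of 4 motifs searched on both strands in the promoters of Tnfsf11, Csf1, Tnfrsf11a and Sema3a, and the one marked was picked after the matches were seen. CANNTG, the E-box core, had 1 match in Tnfsf11, 2 in Tnfrsf11a and 2 in Sema3a, beside 72.31% of all promoters. TGTGGT, a RUNX core, matched in Sema3a alone and in 16.76% of promoters. The RefSeq start used for Sema3a lies inside the gene span given above and not at its 5′ end. GAGGAA, a PU.1 core, matched in none of the 4 and in 28.28% of promoters.

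In OBs, Tnfsf11 and Csf1 were far above their levels in Tyrobp cells, and the receptors Tnfrsf11a and Csf1r were far below theirs. Tnfsf11 ranged from 2.90 to 23.4 CPM over the 8 OB sums, from 0 to 1.25 in Tyrobp cells and from 1.79 to 4.68 in other cells. The OB and Tyrobp ranges did not overlap, while the lowest OB library, S4, lay within the range of other cells. A Tnfsf11 UMI was found in 15.2% of OBs (405 of 2671) against 0.353% of Tyrobp cells, a population that is not known for RANKL, and 1.80% of other cells. OBs held more UMIs per cell than Tyrobp cells in every library but S7. The median was 13464 against 5100 in S1, 14876 against 14309 in S8 and 17586 against 18187 in S7. With each cell thinned to 2000 UMIs, the median over libraries was 3.18% of OBs and 0 of Tyrobp cells. Across all genes tested with library as a block, the log2 fold change of Tnfsf11 was 5.08 (SE 0.42) against Tyrobp cells and 2.21 (SE 0.32) against other cells (edgeR quasi-likelihood test, adjusted p = 1.97e-06 and 0.000579).

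Csf1 ranged from 47.4 to 119 CPM in OBs, from 3.07 to 11.3 in Tyrobp cells and from 10.8 to 38.7 in other cells. All 8 OB sums lay above all sums of both other populations. Its log2 fold change was 3.41 (SE 0.33) against Tyrobp cells and 1.68 (SE 0.23) against other cells. A Csf1 UMI was present in 48.1% of OBs, 4.38% of Tyrobp cells and 14.9% of other cells.

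Sema3a ranged from 21.8 to 190.3 CPM in OBs, from 0.22 to 8.73 in Tyrobp cells and from 3.56 to 38.7 in other cells. The OB values fell into 2 sets by kit version, 21.8 to 34.6 with version 3 and 169 to 190.3 with version 3.1. Within every library the OB level was above that of the other cells. The log2 fold change of Sema3a was 4.73 (SE 0.50) against Tyrobp cells and 2.34 (SE 0.42) against other cells.

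Tnfrsf11b showed another order. It ranged from 8.29 to 12.2 CPM in OBs, from 0 to 10.3 in Tyrobp cells and from 2.85 to 46.4 in other cells. In OBs it was higher than in Tyrobp cells by 2.0 on the log2 scale (SE 0.48) and lower than in other cells, with a log2 fold change of -1.18 (SE 0.32, adjusted p = 0.0172 by edgeR). S2 stood apart among the other cells at 2.85 CPM, beside 19.9 to 46.4 in the remaining 7 libraries. The call against other cells was lost without S5, S6, S7 or S8, with adjusted p of 0.0516 to 0.0524.

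The receptors were reversed. Tnfrsf11a ranged from 13.2 to 406 CPM in Tyrobp cells and from 0 to 7.56 in OBs, and Csf1r from 162 to 758 in Tyrobp cells and from 0.80 to 11.7 in OBs, with no overlap for either. Their log2 fold changes in OBs against Tyrobp cells were -6.05 (SE 0.33) for Tnfrsf11a and -6.55 (SE 0.35) for Csf1r. A Csf1r UMI was found in 49.9% of Tyrobp cells, 3.22% of OBs and 1.59% of other cells, and a Tnfrsf11a UMI in 20.4%, 2.70% and 1.01%. Of 5942 Tyrobp cells, 1161 held both receptors, 1805 held Csf1r alone and 51 held Tnfrsf11a alone. Csf1r was called higher in OBs than in other cells, at 1.24 on the log2 scale (SE 0.24). Leaving out OBs with a UMI of Tyrobp, Pecam1 or Cdh5 turned that value to -0.79 (adjusted p = 0.0351), and turned Tnfrsf11a from 0.71 (SE 0.36, adjusted p = 0.160) to -0.08.

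Il34 was low in OBs, 0 to 9.78 CPM, beside 0.50 to 4.88 in Tyrobp cells and 2.81 to 14.1 in other cells. It was too low for the test against Tyrobp cells and was called lower in OBs than in other cells at -1.54 (SE 0.30). In S7, the library with the highest level, 1 eOB alone held 24 of the 63 Il34 UMIs of all OBs.

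Of the members that passed the filter on low counts, 6 of 6 were called between OBs and Tyrobp cells, where 67% of all genes were. Between OBs and other cells 6 of 7 were called, beside 32.6% of all genes, and between Tyrobp and other cells 7 of 7, beside 67.4%. The last comparison gave 6.52 (SE 0.52) for Tnfrsf11a and 7.88 (SE 0.25) for Csf1r, higher in Tyrobp cells, and values from -3.28 (Tnfrsf11b) to -1.72 (Csf1) for the remaining 5.

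**Figure D1:**
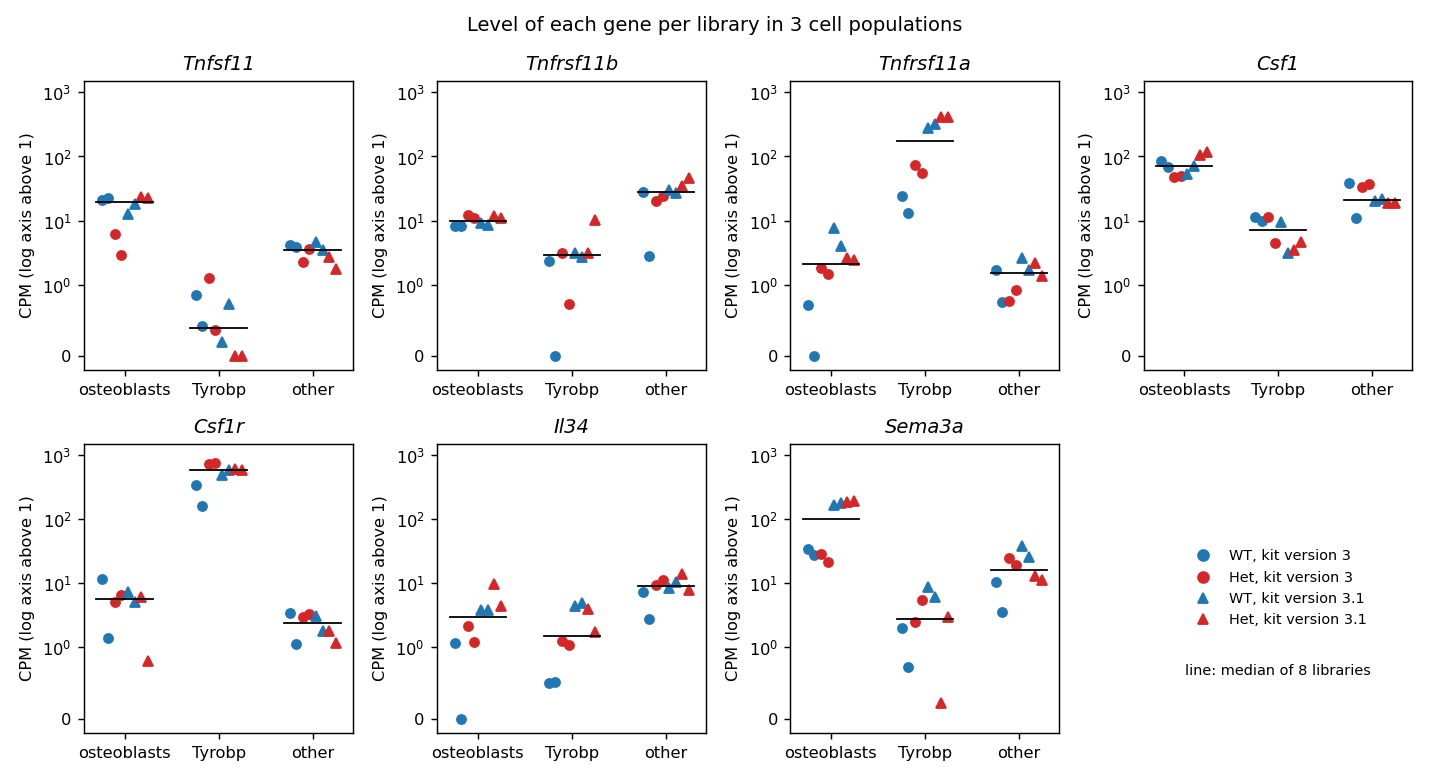
Level of each of the 7 genes in OBs, Tyrobp cells and other cells, 1 point per library, in CPM on an axis that is logarithmic above 1, with a line at the median of the 8 libraries. Tnfrsf11a and Csf1r in Tyrobp cells lie above every OB value, and Csf1 in OBs, from 47.4 to 119 CPM, lies above every value of the other populations.

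The Tyrobp and other cells were divided into cell classes. Classes were named from at least 3 of 8 fixed markers at 2 UMIs or more; 12610 cells stayed unnamed. No doublet caller was run. Levels are given as the median and range over libraries with at least 20 cells of a class, or as values per library for the classes named.

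Tnfrsf11a was highest in osteoclast-like cells (median 411 CPM over the 7 libraries with enough of them, 280 cells in all 8), followed by macrophage-like cells (182) and monocyte-like cells (19.7), and its median in neutrophil-like cells was 0. Only 2 of the monocyte markers were among the 10 genes highest by fold in the monocyte-like class, beside H2-Aa, H2-Eb1, H2-Ab1 and Cd74, genes of antigen presentation that dendritic cells also express, so this class is not shown to be monocytes alone. The ranges of the first 2 overlapped across libraries, 144 to 588 and 75.1 to 420.1 CPM, but within each of the 8 libraries osteoclast-like cells were the higher. Csf1r had its highest median in macrophage-like cells (772), then osteoclast-like (610), monocyte-like (319.5) and neutrophil-like cells (17.2). Macrophage-like and osteoclast-like ranges overlapped for Csf1r, 643 to 1348 and 491 to 738. Pooled over libraries, macrophage-like cells held 57.7% of all Csf1r UMIs and 41.9% of all Tnfrsf11a UMIs, the largest share of the named classes in 7 of 8 libraries each. The exceptions were S2 for Csf1r (42.6% in monocyte-like against 27.0% in macrophage-like cells) and S6 for Tnfrsf11a (42.9% in osteoclast-like against 35.8% in macrophage-like cells).

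The decoy receptor gene Tnfrsf11b had its highest median in cartilage-like cells, 40.0 CPM with a range of 28.4 to 60.3. Pooled over libraries these cells held 74.3% of its UMIs, against 2.06% for dOBs, but the leading class differed by library. Fibroblast-like cells held more of them in S1 (79.6% against 6.19%), S3 (43.6% against 35.1%) and S4 (54.8% against 27.0%), where their levels of 136, 41.2 and 74.9 CPM were also above those of the cartilage-like cells. The next medians, 11.7 in dOBs and 9.96 in eOBs, lay close together with overlapping ranges. The lowest fibroblast-like level was 3.39 in S7. Cartilage-like cells were 4.11% and 4.99% of the other cells in S1 and S2, 25% and 17.1% in S3 and S4 and 45.3% to 64.2% in the kit version 3.1 libraries, and the part of this in the Tnfrsf11b level of other cells was not tested.

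Il34 had its highest level in mural-like cells, the pericytes and smooth muscle of vessels, with a median of 134 CPM. These cells held 46.8% of its UMIs pooled over libraries and 27.0% to 65.5% by library, and fibroblast-like cells held more of them in S1 (50% against 27.0%), S3 (35.8% against 28.3%) and S4 (35.6% against 34.0%). Mural-like values were 43.0 and 89.5 in S1 and S2, 71.3 and 69.5 in S3 and S4, 179.5 and 219 in S5 and S6, and 257 and 244 in S7 and S8. Fibroblast-like cells followed at 15.9 (11.1 to 22.0), with no overlap with mural-like cells. The 2 ligands of Csf1r thus had different leading classes, mural-like cells for Il34 and, among the classes found in all 8 libraries, eOBs for Csf1.

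Csf1 had medians of 128 CPM in eOBs, 96.0 in dOBs, 50.7 in fibroblast-like cells, 44.5 in mOBs and 38.3 in mural-like cells. Mast or basophil-like cells were higher in the 2 libraries with enough of them, at 283 CPM in S1 (20 cells, 44 UMIs) and 192 in S2 (23 cells, 39 UMIs). Tnfsf11 had medians of 32.7 in eOBs, 19.0 in dOBs, 9.66 in fibroblast-like cells and 7.53 in mOBs, and 30.4% of its UMIs lay in unnamed cells. Sema3a had medians of 122 in dOBs, 75.7 in eOBs, 51.5 in mOBs and 43.3 in fibroblast-like cells, but these pool 2 kit versions that lay apart. In dOBs it was 38.5 to 54.8 with version 3 and 189.8 to 211 with version 3.1, and dOBs were above eOBs in 4 of 8 libraries only (S3, S5, S6 and S7). For these 3 genes, neighbours in the order overlapped in their ranges.

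Among 2671 OBs, 362 held a UMI of Tnfsf11 alone, 242 of Tnfrsf11b alone and 43 of both, so most OBs with a UMI of 1 of the pair had none of the other at this depth. Both genes were found in few OBs, and whether the overlap differs from what these rates alone give was not tested. In eOBs the counts were 94, 34 and 10, and in mOBs 96, 97 and 5.

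Of the other genes of these pathways, the lists followed the populations. Among 16 tested signals from the OB side, 13 were called higher in OBs than in Tyrobp cells and 2 lower (list median 2.02 on the log2 scale, beside -0.03 for all genes, of which 67% were called, 3879 higher and 4106 lower of 11917). Slit2 and Slit3, secreted guidance proteins, were higher by 5.86 (SE 0.65) and 4.97 (SE 0.54), Sema3d by 3.77 (SE 0.33) and Cxcl12, a chemokine that retains blood progenitors, by 3.70 (SE 0.62). The monocyte attractants Ccl2 and Ccl7 were lower, at -6.01 (SE 0.53) and -4.75 (SE 0.50). Among 13 receptors that act upstream of Tnfsf11, 9 were higher and 3 lower (list median 1.48). They included Pth1r, the parathyroid hormone receptor, at 5.18 (SE 0.18), Vdr, the vitamin D receptor, at 4.92 (SE 0.25), and the interleukin 6 receptor Il6ra at -5.95 (SE 0.25).

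Among 23 tested receptors and transducers of the osteoclast lineage, 20 were lower in OBs than in Tyrobp cells and 3 higher (list median -2.0). The myeloid transcription factor Spi1 (PU.1) was at -6.87 (SE 0.38), the Fc receptor adaptor Fcer1g at -6.74 (SE 0.38) and the inhibitory receptor Pirb at -6.76 (SE 0.30). The 3 that were higher in OBs were Ptprz1, at 7.06 (SE 0.21), Lgr4, an alternative receptor of RANKL, at 2.25 (SE 0.19), and Plxna1, a semaphorin co-receptor chosen for naming after its value was seen. Of 13 osteoclast effectors, 12 were lower and 0 higher (list median -2.75), with Dcstamp, which osteoclast fusion needs, at -7.44 (SE 0.47) and the proton pump subunit Atp6v0d2 at -6.84 (SE 0.60). Several effectors are markers of the osteoclast-like class, which was not used to define the Tyrobp cells.

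Against other cells the counts were more even, and 32.6% of all genes were called there, 1914 higher and 2614 lower of 13869. Of 19 OB-side signals 7 were higher in OBs and 6 lower, with Slit2 at 3.15 (SE 0.37), Sema3b at 2.33 (SE 0.28) and Sema3c at -1.90 (SE 0.42). Of 13 upstream receptors 5 were higher and 5 lower, with Vdr at 3.16 (SE 0.21), Lifr, the LIF receptor, at 3.07 (SE 0.16) and Pth1r at 2.40 (SE 0.20). Of 20 transducers 5 were higher and 6 lower, and of 11 effectors 3 were higher and 1 lower, with Ctsk at 1.10 (SE 0.13), so the share of effectors called was near that of all genes. In Tyrobp against other cells, 67.4% of all genes were called, 4433 higher and 5144 lower of 14200. Of 23 transducers 18 were higher and 2 lower there, and of 13 effectors 11 were higher and 0 lower. Of 20 OB-side signals 15 were lower and 4 higher, and of 14 upstream receptors 9 were lower and 4 higher.

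Among the OB stages, the medians of both ligands that drive osteoclast formation were highest in eOBs, and both were lower in mOBs. Tnfsf11 in eOBs was 37.0 and 90.3 CPM in S1 and S2, 33.1 and 9.80 in S3 and S4, 17.9 and 52.6 in S5 and S6, and 32.2 and 27.9 in S7 and S8. In dOBs it was 26.0 and 21.4, 8.66 and 3.73, 14.3 and 19.9, and 18.8 and 19.1 in the same order. In mOBs it was 4.80 and 6.51, 0 and 2.10, 8.55 and 9.36, and 26.5 and 27.1. In all 8 libraries mOBs were below eOBs, but the 2 Het libraries of kit version 3.1 differed little between the stages. The 0 in S3 mOBs allowed up to 2.0 CPM (3 UMIs), a limit for counting error only.

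The log2 fold change of Tnfsf11 in mOBs against eOBs was -1.49 (SE 0.44, edgeR adjusted p = 0.0230). The call was lost without S1, S2 or S6 (adjusted p = 0.0540, 0.0639 and 0.0733), and with a looser choice of OBs that asked for 1 UMI of the markers it was -0.85 (adjusted p = 0.162). The eOB sums rested on 2 to 49 Tnfsf11 UMIs per library. A Tnfsf11 UMI was found in 27.4% of eOBs, 16.4% of dOBs and 9.40% of mOBs, although the median depth of mOBs was above that of eOBs in each library (16500 UMIs against 10278 in S1).

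Csf1 in eOBs was 130.3 and 128 CPM in S1 and S2, 153 and 103 in S3 and S4, 62.4 and 96.6 in S5 and S6, and 128 and 178 in S7 and S8. In dOBs it was 115 and 128, 45.2 and 82.0, 48.9 and 79.4, and 109.9 and 122. In mOBs it was 24.0 and 33.3, 32.0 and 34.7, 54.4 and 58.7, and 87.9 and 79.7. Each library was lower in mOBs than in eOBs. The fitted difference on the log2 scale was -0.85 (SE 0.22), with an adjusted p of 0.0104 by edgeR. With the looser choice of OBs the value was -0.14 (adjusted p = 0.774), so the call for Csf1 depended on how OBs were chosen.

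Tnfrsf11b and Sema3a did not pass the test between these stages. Tnfrsf11b was 0 to 23.3 CPM in eOBs, 7.77 to 21.4 in dOBs and 4.80 to 9.45 in mOBs (log2 fold change of mOBs against eOBs -0.45, SE 0.32). In eOBs 15 of its 84 UMIs came from 1 cell. Sema3a was 33.1 to 304 in eOBs, 38.5 to 211 in dOBs and 9.99 to 184 in mOBs (-0.27, SE 0.30). Within kit version 3, Sema3a in mOBs lay at 9.99 to 18.8, below the 33.1 to 57.1 of eOBs, and within version 3.1 the stages overlapped. The other 3 genes were too low to be tested. In all, 2 of 4 members tested were called between mOBs and eOBs, beside 28% of all genes.

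**Figure D2:**
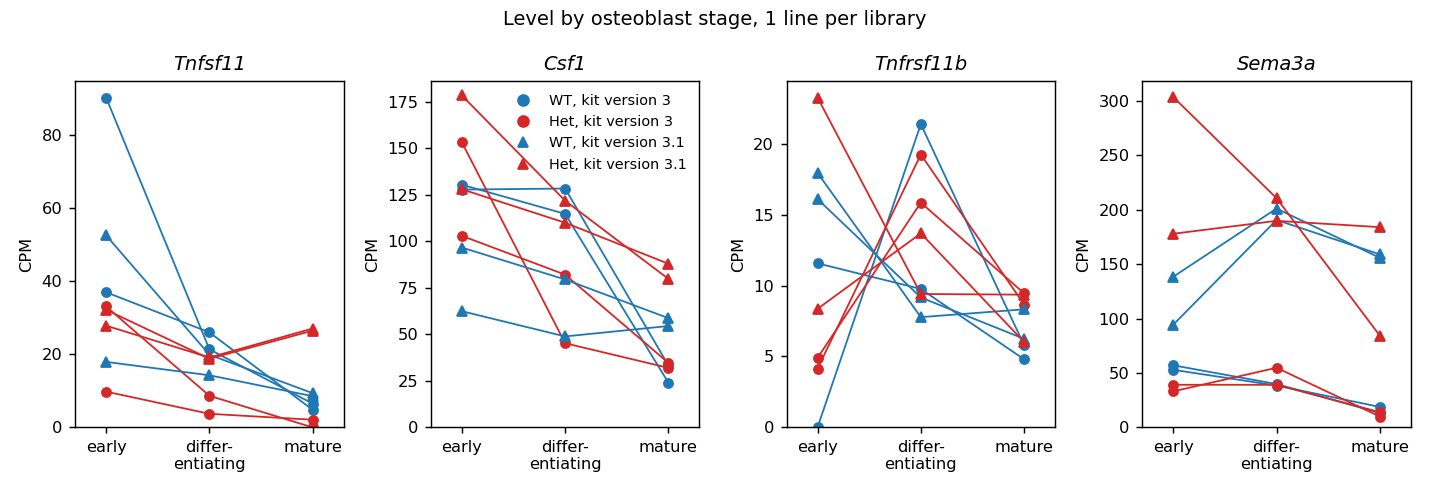
CPM of 4 genes in early, differentiating and mature OBs, with a line for each library, blue for WT and red for Het, circles for kit version 3 and triangles for version 3.1. Tnfsf11 and Csf1 are lower in mature than in early OBs in 8 of 8 libraries, while the lines of Tnfrsf11b and Sema3a cross.

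Among the OB-side signals tested between these stages, 4 of 13 were higher in mOBs and 4 lower, beside 28% of all genes called, 1367 higher and 1214 lower of 9217. Sema3b was higher by 4.38 (SE 0.37), Sema3d by 1.85 (SE 0.33) and Tgfb1 by 1.77 (SE 0.14), while Cxcl12 was at -3.38 (SE 0.40) and Sdc1 at -1.12 (SE 0.29). Of 11 receptors upstream of Tnfsf11, 3 were higher and 5 lower. Pth1r was higher by 1.38 (SE 0.13) and Lrp5, a Wnt co-receptor, by 1.14 (SE 0.20), and Il6st, the shared subunit of the interleukin 6 family receptors, was at -0.97 (SE 0.12). Thus Tnfsf11 was lower in mOBs while the receptor for parathyroid hormone was higher there. Of 16 transducers 2 were higher and 4 lower, with Ptprz1 at 4.23 (SE 0.30) and the Sema3a receptor subunit Nrp1 at -1.91 (SE 0.12). Of 8 effectors 1 was higher (Ctsk, 1.64, SE 0.31) and 2 lower, among them the gelatinase Mmp9 at -3.75 (SE 0.38).

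The ratio of Tnfsf11 to Tnfrsf11b, read in the field as the balance between RANKL and its decoy, was taken as log2 of the 2 UMI sums with 0.5 added to each. Its mean difference of mOBs minus eOBs was -2.13 (SD 2.98, n = 8 libraries), and it was negative in 5 of 8. An exact sign-flip test gave p = 0.0781, two-sided, where the smallest possible p is 0.00781. By library the differences were -1.65, -5.72, -7.26 and -2.82 in S1 to S4, and 0.04, -1.10, 1.02 and 0.45 in S5 to S8. The 2 largest rest on a count of 0, of Tnfrsf11b in S2 eOBs and of Tnfsf11 in S3 mOBs, so the 0.5 added sets their size, and the mean was -1.62 without S2 and -1.40 without S3. All 4 libraries of kit version 3 were negative, and those of version 3.1 lay on both sides of 0. The value turned to 0.24 with cells thinned to 2000 UMIs.

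The series was designed to compare Het with WT cells. With kit version and genotype as terms, edgeR called 0 of the tested members between Het and WT in any population, beside 0.0085% of all genes in OBs, 0% in eOBs, 0.0101% in dOBs, 0.53% in mOBs, 0.0083% in Tyrobp cells and 0% in other cells. Tested members numbered 7, 3, 4, 4, 5 and 7. At an unadjusted p under 0.05 the member counts were 2, 0, 0, 1, 2 and 1. All genes at that limit numbered 1043 of 11762, 310 of 8118, 740 of 9857, 1076 of 9623, 2126 of 12043 and 2816 of 16137. DESeq2 called 1 member in Tyrobp cells, beside 409 of 12043 genes, and 1 in other cells, beside 701 of 16137. In the OB populations it called 0 members, beside 44 genes in OBs, 3 in eOBs, 4 in dOBs and 130 in mOBs.

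In OBs as a whole, Tnfrsf11b stood at 8.35, 8.29, 9.06 and 8.50 CPM in WT libraries (S1, S2, S5 and S6) and at 12.2, 10.9, 11.8 and 10.9 in Het libraries (S3, S4, S7 and S8). All 4 Het values lay above all 4 WT values, in both kit versions. The log2 fold change was 0.39 (SE 0.15, unadjusted p = 0.0301, adjusted p = 0.536 by edgeR), so this difference did not pass the test over all genes. The values rested on 18 to 109 UMIs per library. With DESeq2 the unadjusted p was 0.0740, and with a replicate block in edgeR 0.0674. The order did not hold within stages. In eOBs Tnfrsf11b was 11.6 and 0 CPM in S1 and S2, 4.14 and 4.90 in S3 and S4, 17.9 and 16.1 in S5 and S6, and 23.3 and 8.36 in S7 and S8, with the lower mean in Het in both versions. In dOBs S2 (WT) had the highest level, 21.4, and in mOBs S8 (Het) at 6.02 lay below S5 and S6 (WT) at 8.32 and 6.24.

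Il34 in OBs was 1.19 and 0 CPM in S1 and S2, 2.16 and 1.21 in S3 and S4, 3.82 and 3.77 in S5 and S6, and 9.78 and 4.43 in S7 and S8 (log2 fold change 0.94, SE 0.39, edgeR adjusted p = 0.556). Het was the higher genotype in both kit versions, on 0 to 63 UMIs. In mOBs, Csf1 had a log2 fold change of 0.38 (SE 0.13, unadjusted p = 0.0147, edgeR adjusted p = 0.281), on the values given above, which overlapped between WT and Het within kit version 3. In OBs, Sema3a had -0.10 (SE 0.11, adjusted p = 0.999).

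Tnfsf11 and Csf1 in OBs moved in opposite directions in the 2 kit versions. Tnfsf11 was 21.0 and 22.1 CPM in WT and 6.11 and 2.90 in Het libraries of kit version 3, on 88, 48, 17 and 12 UMIs. With version 3.1 it was 12.6 and 18.1 in WT and 23.4 and 22.5 in Het libraries, on 151, 207, 151 and 56 UMIs. WT and Het did not overlap in either version, with Het lower in the first and higher in the second. Over both versions the log2 fold change was -0.51 (SE 0.47).

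Csf1 was 83.5 and 67.7 CPM in WT and 47.4 and 50.3 in Het libraries of version 3, and 52.4 and 72.1 in WT and 106 and 119 in Het libraries of version 3.1. The same 2 Het libraries were again the lowest of all 8 and the other 2 the highest. Over both versions the log2 fold change was 0.14 (SE 0.25).

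A term for the difference between the kit versions was added to the fit after these directions had been seen. It called 2 of 7 members in OBs, beside 2.55% of all genes: Tnfsf11 at 2.77 (SE 0.41, adjusted p = 0.0120 by edgeR) and Csf1 at 1.34 (SE 0.22, adjusted p = 0.0192), positive where the Het effect was more positive with version 3.1. Both calls were lost without S1, S4 or S7 and with thinned cells, and that of Csf1 also without S3. Adjusted p for Tnfsf11 was then 0.0508, 0.0532, 0.0508 and 0.369. For Csf1 it was 0.101, 0.063, 0.055 and 0.0675, and 0.0918 without S3. The values themselves stayed between 1.52 and 2.92 for Tnfsf11 and between 1.27 and 1.42 for Csf1 in those fits.

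The stage makeup of the OBs moved with the same libraries. eOBs were 33.3% and 17.3% of OBs in S1 and S2, 13.1% and 7.26% in S3 and S4, 11.6% and 9.82% in S5 and S6, and 18.1% and 17.0% in S7 and S8. The part of this in the differences of Tnfsf11 and Csf1 was not tested. Within stages the difference between kit versions was called for 0 members, beside 1.07% of all genes in eOBs, 0.264% in dOBs and 0.104% in mOBs. At an unadjusted p under 0.05 it held 1 member in eOBs, 2 in dOBs and 1 in mOBs, beside 1106 of 8118, 967 of 9857 and 1046 of 9623 genes. DESeq2 called 1 member, Csf1 in dOBs, beside 61 of 9857 genes there.

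Within dOBs the Csf1 values listed above did not overlap between WT and Het in either version, with Het lower in S3 and S4 and higher in S7 and S8 (1.73, SE 0.36, edgeR adjusted p = 0.0935). In eOBs and mOBs Csf1 of version 3 overlapped between WT and Het, with log2 ratios of the TMM-scaled means, Het over WT, of -0.02 and 0.15, beside 0.86 and 0.51 with version 3.1. Tnfsf11 in mOBs likewise did not overlap (3.56, SE 0.74, edgeR adjusted p = 0.0693), on 0 to 9 UMIs per library with version 3 and 18 to 51 with version 3.1. In dOBs Tnfsf11 was lower in both Het libraries of version 3, and WT and Het overlapped with version 3.1 (2.10, SE 0.51, edgeR adjusted p = 0.158). In eOBs Sema3a was 57.1 and 53.0 in WT and 33.1 and 39.2 in Het libraries of version 3, and 94.4 and 138 in WT and 178 and 304 in Het libraries of version 3.1 (1.57, SE 0.51, edgeR adjusted p = 0.178). The difference of the Het effect between mOBs and dOBs called 0 of 5 members, beside 0% of all genes. Tnfsf11 had 1.21 (SE 0.55, unadjusted p = 0.0482, edgeR adjusted p = 0.9999), the only member under an unadjusted 0.05, beside 488 of 10580 genes. DESeq2 called 0 members there.

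The ratio of Tnfsf11 to Tnfrsf11b in OBs was 1.32 and 1.39 on the log2 scale in S1 and S2, -0.98 and -1.86 in S3 and S4, 0.47 and 1.09 in S5 and S6, and 0.99 and 1.04 in S7 and S8. The WT mean was 1.07 ± 0.42 (SD, n = 4) and the Het mean -0.20 ± 1.45 (SD, n = 4). The difference of -1.27 gave p = 0.171 in an exact permutation test over the 70 assignments, two-sided, whose smallest p is 0.0286. These assignments cross the kit versions, which the test did not hold apart. The difference was -2.78 with kit version 3 and 0.23 with version 3.1. The same test was run in 5 populations, and the p adjusted over them was 0.333 for OBs. The ratio was negative only in S3 and S4, the 2 Het libraries of version 3. In mOBs the difference was -1.02 (exact permutation p = 0.543), with -3.50 and 1.45 by version, in dOBs -1.24 (p = 0.2, -2.22 and -0.26) and in eOBs -0.98 (p = 0.6, -2.14 and 0.19).

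In other cells the ratio was -2.76 and 0.43 in S1 and S2, -3.14 and -2.76 in S3 and S4, -2.66 and -2.97 in S5 and S6, and -3.66 and -4.69 in S7 and S8. The mean of Het was lower in both versions, by -1.79 and -1.36, with S2 far above the rest and S1 and S4 alike. The difference of -1.57 gave p = 0.0571 in the exact permutation test (adjusted over the 5 populations, 0.286). The share of cartilage-like cells moved between these libraries as given above, and its part was not tested.

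**Figure D3:**
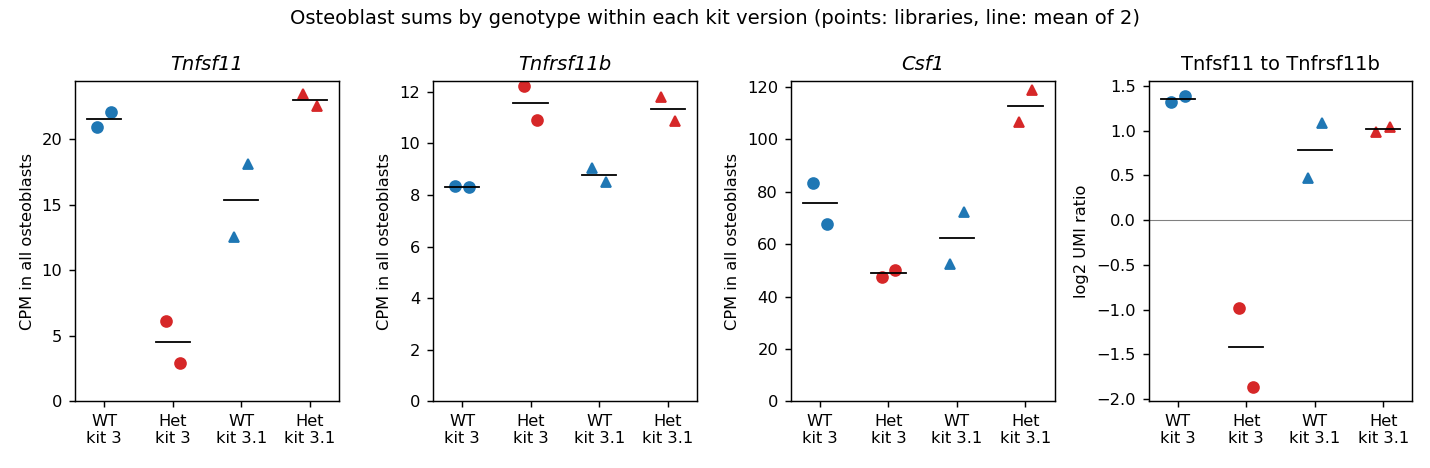
CPM of Tnfsf11, Tnfrsf11b and Csf1 in all OBs, and the log2 ratio of Tnfsf11 to Tnfrsf11b UMIs, for each genotype within each kit version; points are libraries and lines the mean of 2. Tnfrsf11b is higher in Het in both versions, while Tnfsf11 and Csf1 are lower in Het with version 3 and higher with version 3.1.

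In Tyrobp cells, Tnfrsf11a was 24.3 and 13.2 CPM in S1 and S2, 72.5 and 54.7 in S3 and S4, 282 and 319 in S5 and S6, and 406 and 405 in S7 and S8. Het lay above WT in each kit version, with a log2 fold change of 0.85 (SE 0.25, unadjusted p = 0.00923, edgeR adjusted p = 0.181). DESeq2 gave an adjusted p of 0.0445 for Tnfrsf11a, and edgeR 0.0147 without the filter on low counts. Those fits called 409 of 12043 and 743 of 20638 genes. Csf1r was 336 and 162, 733 and 758, 482 and 580, and 615 and 578 in the same order (0.67, SE 0.28, edgeR adjusted p = 0.272). For Csf1, the log2 ratios of TMM-scaled means, Het over WT with 1 CPM added, were -0.70 with version 3 and -0.55 with version 3.1. They were 0.25 and 0.90 for Tnfrsf11b, and 0.88 and -1.69 for Sema3a.

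The makeup of the Tyrobp cells moved with genotype and kit. Neutrophil-like cells, in which the median Tnfrsf11a level was 0, were 40.9% and 40.5% of Tyrobp cells in S1 and S2, 3.03% and 17.7% in S3 and S4, and 3.97% to 9.0% with kit version 3.1. Macrophage-like cells were 10.7% and 4.24%, 48.9% and 42.4%, and 39.9% to 53.7%. Within macrophage-like cells Tnfrsf11a was 82.8 and 75.1 CPM in S1 and S2 and 90.0 and 80.9 in S3 and S4, where the genotypes overlapped, and 274 and 286 in S5 and S6 and 420.1 and 419 in S7 and S8, where Het was higher. Within osteoclast-like cells it was 179 and 144 in WT and 144 and 176 in Het libraries of version 3, and 411 and 433 in WT and 588 and 548 in Het libraries of version 3.1. The osteoclast-like sums of S3 and S4 rested on 14 and 22 cells. Within monocyte-like cells it was 11.9 and 7.63 in S1 and S2, 19.7 and 15.9 in S3 and S4, 121 and 147 in S5 and S6, and 95.2 in S7, while S8 had 17 such cells. The part of cell makeup in the Tyrobp difference was not tested.

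In other cells, Tnfsf11 was 4.15 and 3.85 CPM in S1 and S2, 2.24 and 3.55 in S3 and S4, 4.68 and 3.48 in S5 and S6, and 2.71 and 1.79 in S7 and S8. Het was lower in both versions (log2 fold change -0.81, SE 0.23, unadjusted p = 0.00796, edgeR adjusted p = 0.258, DESeq2 adjusted p = 0.0273, where DESeq2 called 701 of 16137 genes). Cartilage-like cells, with a median Tnfsf11 level of 0.611 CPM, were a larger share of other cells in S3 and S4 than in S1 and S2, with overlapping shares in version 3.1, and their part in this difference was not tested. For Tnfrsf11b, the log2 ratios of TMM-scaled means, Het over WT with 1 CPM added, were 0.40 with version 3 and 0.50 with version 3.1. They were 0.73 and 0.19 for Il34, 0.34 and -0.14 for Csf1, 0.21 and -0.46 for Csf1r, and -0.38 and -0.18 for Tnfrsf11a. In the same cells Sema3a was 10.5 and 3.56 in S1 and S2, 25.1 and 19.5 in S3 and S4, 38.7 and 25.8 in S5 and S6, and 12.8 and 11.3 in S7 and S8. The added term between kit versions called this 1 of 7 members, beside 4.9% of all genes (-2.89, SE 0.50, edgeR adjusted p = 0.0375). The Sema3a call was lost without any one of S3, S4, S5, S6, S7 or S8, fits that leave 1 library in a genotype and version. The share of all genes called also fell in those fits, and it rose without S1 or S2.

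Among the listed genes, edgeR called none between Het and WT outside mOBs. There it called 1 of 11 receptors upstream of Tnfsf11 and 1 of 16 transducers, beside 0.53% of all genes. Vdr was lower in Het at -1.09 (edgeR adjusted p = 0.00147) and Fos, a transcription factor that osteoclast formation needs, was lower at -1.16 (adjusted p = 0.0197). With kit version left out of the fit, edgeR called 0 of 9623 genes in mOBs (254 at an unadjusted p under 0.05), so both calls were lost. Of all genes, 51 were called in mOBs in the main fit, 26 with a replicate block, 11 without S2 and 166 without S7. Whether Vdr and Fos kept their calls in those other fits was not examined. The median of the receptors upstream of Tnfsf11 in mOBs was -0.25 over 11 genes, beside 0.01 for all genes.

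Sema3a and Tnfrsf11a differed between the libraries of the 2 kit versions, which also differ in software version and cell makeup, and these cannot be told apart. Whether reads in introns were counted alike in both sets is not given in the sources used here, so the levels of long genes may not be comparable between them. Over OBs, Sema3a averaged 28.3 CPM with version 3 and 180.5 with version 3.1, a log2 ratio of 2.63 after adding 1 CPM, and Tnfrsf11a in Tyrobp cells averaged 41.2 and 353, a log2 ratio of 3.07. Within osteoclast-like cells alone, Tnfrsf11a was 144 to 179 CPM with version 3 and 411 to 588 with version 3.1. Over all genes in OBs the ratio rose with the length of the gene on the genome: the median was -0.20 for genes under 10 kb, 0.26 for 10 to 50 kb, 0.85 for 50 to 100 kb, 1.36 for 100 to 200 kb and 2.41 for genes over 200 kb. Sema3a spans 477 kb and lay near the median of its length class in OBs, but its ratios of 0.59 in Tyrobp cells and 0.56 in other cells lay below the 1.99 and 2.16 of that class there. Tnfrsf11a spans 67.3 kb and lay above the 0.63 of its class in Tyrobp cells. Tnfsf11, Tnfrsf11b and Csf1 span 19.4 to 30.6 kb, and their log2 ratios in OBs were 0.52, 0.02 and 0.48.

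**Figure D4:**
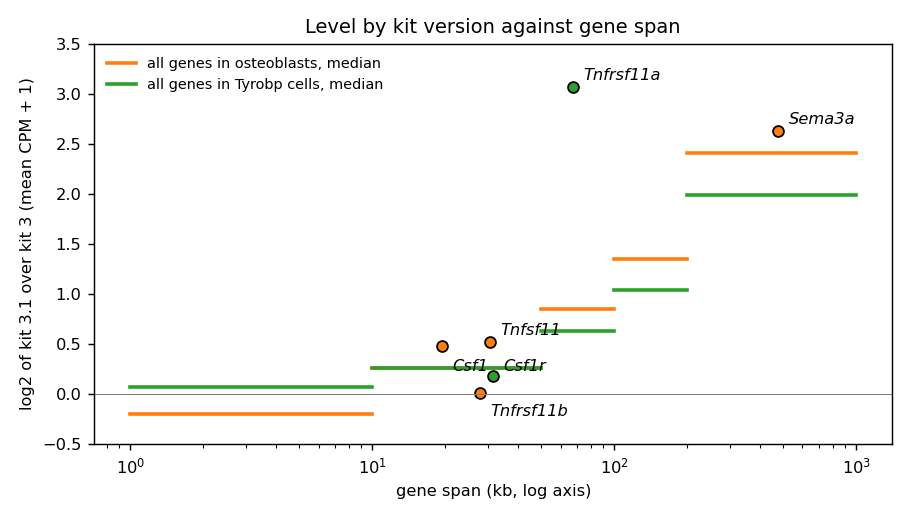
Log2 ratio of the mean level (CPM + 1) in kit version 3.1 over version 3 against the span of the gene on a log axis, with bars at the median of all genes in each span class in OBs (orange) and Tyrobp cells (green). Sema3a in OBs, at 2.63, lies near the bar of genes over 200 kb at 2.41, and Tnfrsf11a in Tyrobp cells, at 3.07, lies above the bar of its class.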

How the data were processed

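Single-cell RNA was measured in 8 libraries of parietal bone cells, 4 WT and 4 Het. The authors digested the bones with collagenase type 4, made 3′ libraries and deposited filtered matrices of UMI counts per gene and cell. The submitters' processing notes name Cell Ranger 5.0.0 (S1 to S4) and 6.0.1 (S5 to S8) with mm10, so kit version and software version cannot be told apart. Counts were used as deposited. Of 31053 gene IDs, 30934 (99.6%) matched GENCODE M21, from which positions and spans were taken.

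Cells were gated as stated in the report and UMIs summed per library and population, leaving out sums of under 10 cells, since cells of 1 library are not replicates. The study tested single cells by a Wilcoxon test. Replicates were separate libraries, each a pool of animals. Genes were filtered with filterByExpr, scaled by TMM and tested with edgeR's quasi-likelihood test (edgeR 4.0.16, limma 3.58.1, R 4.3.3), with genotype and kit version, or with library as a block. P-values were adjusted by Benjamini-Hochberg over all genes tested, and a call needed an adjusted p under 0.05. Log2 fold changes rest on TMM-scaled counts, and levels on plain CPM. Each SE is the log2 fold change divided by the root of the F value. Where a gene varied less than counting error, edgeR's p is larger than that SE implies, as for Sema3a in OBs. Alternatives were DESeq2 1.42.0, RLE scaling, no filter, cells thinned to 2000 UMIs (8703 cells were below), looser and stricter OB gates, cells of mixed markers left out, kit version left out, a replicate block and each library left out. The edgeR step was tested on simulated data. Python 3.11.15, numpy 2.4.6, pandas 2.3.3 and scipy 1.17.1 were used. Depth per population limits low genes: 3 UMIs were taken as the level that a count of 0 allows.

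The members, the pathway lists and the tests were chosen with earlier results of these data known. All 7 members entered each comparison, but not every member has its values printed for each population in Het against WT or in the term between kit versions. From the lists, up to 4 called genes per direction with the largest change and a mean of at least 20 CPM could be named. The genes most alike over cell classes were the 2 with the highest Pearson correlation of log2(mean CPM + 1), among genes with at least 20 CPM in a class. Promoter sequences were given for 4 members, and other sequences are not used here. Of 8 erythroid markers, 7 are listed in the files.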

Additional observations from a re-analysis of the deposited data

Results flagged for a closer look

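In 4 of 74 groups of 4 libraries tested, 1 library lay so far from the others that its gap to the next, as a share of the group's range, passed Dixon's 95% limit, a rate near the 1 in 20 that chance gives. Tnfrsf11b in dOBs was 21.4 CPM in S2 beside 7.77 to 9.76 in the other WT libraries, on 10 UMIs. Tnfrsf11b in other cells was 2.85 in S2 beside 27.4 to 29.7. Csf1r in mOBs was 9.60 in S1 beside 2.03 to 2.29 in the other WT libraries. Csf1 in Tyrobp cells was 11.2 in S3 beside 3.52 to 4.71 in the other Het libraries.

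The effect of Het differed in direction between the 2 kit versions, with WT and Het not overlapping in either, for 6 combinations of gene and population with a mean of at least 10 CPM, a limit set after the values were seen. How many of all genes show this pattern was not counted, so 6 cannot be called unusual. The sums of all OBs also contain those of their stages. The Het minus WT mean in kit version 3 and then in version 3.1 was -17.0 and 7.64 CPM for Tnfsf11 in OBs, and -26.7 and 50.3 for Csf1 in OBs, and both differences passed edgeR's test of the term between kit versions. For Sema3a in other cells the means were 15.2 and -20.2, and that difference passed too. For Sema3a in eOBs they were -18.9 and 124, for Csf1 in dOBs -57.9 and 51.7 and for Tnfsf11 in mOBs -4.61 and 17.8, and these 3 did not pass. Those tests, with their SEs, and the libraries each call rests on are given in the report, and each version holds 2 libraries per genotype. The kit versions also differ in software version and in cell makeup, and their parts cannot be told apart.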

How the results depend on the processing

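A count that reached or left 0, or fell from 2 to 1, was taken as changed. Of 279 alternative values for counts of called members and for the ratio, 245 kept their direction and side of the threshold or, as counts, otherwise moved by at most 1 member. Among these, OBs against other cells gave 5 in place of 6 without S5, S6, S7 or S8 and with thinning, OBs against Tyrobp cells 7 with the looser and 5 with the stricter gate, Tyrobp against other cells 6 with thinning, and no filter gave 3 in place of 2 between mOBs and eOBs and for the difference between kit versions in OBs. The other counts that changed were these. Without the filter on low counts 2 members were called between Het and WT in dOBs (Tnfrsf11a and Csf1r), beside 269 of 19416 genes. Their median levels in dOBs were only 2.66 and 3.87 CPM. In Tyrobp cells 1 was called without it (Tnfrsf11a), beside 743 of 20638 genes. DESeq2 called 1 member in Tyrobp cells and 1 in other cells, beside 409 of 12043 and 701 of 16137 genes. Thinning left 3 members called between OBs and Tyrobp cells, where fewer could be tested, and 1 between mOBs and eOBs, where the looser gate left 0. Leaving out single libraries gave 1 to 2 there. For the difference of the Het effect between kit versions, chosen after seeing the data, thinning left 0 in OBs and 0 in other cells, and leaving out a library gave 0 to 2 in OBs, 0 to 1 in dOBs (1 without S6) and in mOBs (1 without S8), and 0 to 3 in other cells (3 without S1). No filter gave 1 in eOBs, 2 in dOBs and 1 in mOBs, beside 410 of 17733, 361 of 19416 and 352 of 18427 genes. The looser gate gave 1, 2 and 1, beside 145 of 10447, 105 of 11485 and 99 of 9971. DESeq2 gave 1 in dOBs, beside 61 of 9857, and leaving out mixed cells 1 in eOBs, beside 174 of 7156. In eOBs that difference was not run with the stricter gate, which left too few libraries. The mOB minus eOB ratio turned to 0.24 with thinning, and over single libraries left out it ran from -2.58 to -1.40, beside -1.69 to -0.72 for the Het minus WT ratio. Apart from fewer genes or libraries tested, the cause was not tested.

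WT1 and Het1 share a number in the titles, and the correlation of same-numbered deviations within a kit version was -0.12 to 0.14, so the numbers were not taken to pair libraries. With a replicate block 0 members were called in each of the 6 populations, as without it.

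Signs of log2 fold changes turned mostly for values near 0, and among those that turned only Csf1r in OBs against other cells had been called. Het against WT, Csf1 gave -0.10 to 0.34 in OBs over single libraries left out, and in dOBs -0.23 to 0.39, with -0.017 by DESeq2, -0.023 with the looser gate, -0.059 without mixed cells and -0.10 without kit version. In other cells Csf1 gave -0.15 to 0.34 over libraries and -0.050 thinned, and Csf1r -0.51 to 0.049. Sema3a gave -0.14 to 0.0083 in OBs over libraries and 0.28 thinned, -0.0085 to 0.15 in dOBs, 0.28 in mOBs thinned, and -1.70 to 0.22 in Tyrobp cells. In other cells Sema3a gave -0.58 to 0.49 over libraries, -0.0041 with RLE, -0.067 thinned, -0.055 with the stricter gate and -0.19 without kit version.

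Without mixed cells, Tnfrsf11a gave -0.084 and Csf1r -0.79 in OBs against other cells. Sema3a in mOBs against eOBs gave 0.36 with the looser gate. For the Het effect in mOBs against dOBs, Tnfrsf11b gave -0.38 to 0.20 and Csf1 -0.14 to 0.60 over libraries, and Sema3a 0.11 thinned. For the Het effect between kit versions in OBs, Tnfrsf11b gave 0.012 without mixed cells, Csf1r 0.71 with the stricter gate and -2.72 to 0.22 over libraries, Il34 -5.69 to 0.33 over libraries and Sema3a -0.13 with the looser gate. In dOBs, Tnfrsf11b gave 0.048 by DESeq2, 0.27 without mixed cells and -0.56 to 0.67 over libraries, and Sema3a 0.045 thinned and -0.57 to 0.032. In mOBs, Sema3a gave -0.27 with the looser gate and -0.48 to 0.51 over libraries. In other cells, Tnfsf11 gave 0.62 thinned, 0.020 with the looser gate and -0.39 to 0.22 over libraries, Tnfrsf11b -1.87 to 0.87 and Csf1r 0.27 thinned.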

Other observations

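Over 14 OB stages and cell classes, the genes whose mean levels followed the members most closely were these, as a description over points that share libraries and depth. Tnfsf11 was closest to Alpl (Pearson r = 0.96), the alkaline phosphatase of mineralizing cells, and Tnfrsf19 (0.95). Tnfrsf11b was closest to C1qtnf3 (0.92) and 3632451O06Rik (0.90), and Il34 to Fst, the follistatin gene, and Rdh5 (0.94). Csf1 was closest to Lrrc42 (0.96) and Nectin3 (0.96), and Sema3a to Tmtc2 (0.93) and Npnt (0.93), the gene of the matrix protein nephronectin. Of the receptors, Tnfrsf11a was closest to Shtn1 and Gpr183 (0.98), the second a receptor for oxysterols, and Csf1r to Ccl9 (0.98), a chemokine of myeloid cells, and Ifi207 (0.97).

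Endothelial-like cells held Tnfrsf11a at a median of 7.09 CPM (3.86 to 13.3 over 8 libraries, 217 UMIs) and Il34 at 5.53. T or NK-like cells held 14 Tnfsf11 UMIs in 61 cells over all libraries, and in S1, the only library with at least 20 of them, the level was 10.4 CPM on 2 UMIs.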
